A study of Mus musculus with 56 samples.

Results

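The MHC class II genes were followed through the male mouse reproductive tract as a group of 8 genes out of the 53379 in the count table. The 8 are named genes, with no threshold on a measured value, and were picked with earlier results of these data known: H2-Aa, H2-Ab1, H2-Eb1, Cd74, Ciita, H2-DMa, H2-DMb1 and H2-DMb2. RNA-seq was available for C57BL/6 males at 3 months, the young adult group, and at 21 months, the aged group, and neither label nor method names a treatment. Each mouse gave 7 dissected regions, the testis, which makes sperm, the efferent ductules, which carry sperm out of it, the initial segment, caput, corpus and cauda of the epididymis, where sperm mature and are stored, and the vas deferens. There were 4 mice per age, so 56 libraries in 14 groups of 4. The study asked how gene expression differs between regions and with age.

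MHC class II molecules are pairs of an alpha and a beta chain that display peptides from endosomes to CD4+ T cells. In mice H2-Aa and H2-Ab1 encode the chains of the I-A molecule and H2-Eb1 the beta chain of I-E. Cd74 encodes the invariant chain, which escorts new class II molecules and fills their groove, and H2-DM, made of an H2-DMa alpha chain and a beta chain from H2-DMb1 or H2-DMb2, exchanges the remaining invariant chain fragment for peptide. Ciita encodes the coactivator that switches these genes on. Dendritic cells, macrophages and B cells are the usual sources, and epithelia can make class II under interferon gamma.

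The samples are pieces of whole tissue, cleaned of fat and connective tissue under a dissection microscope, so a level sums over all the cell types present. For every difference below, more cells of a kind and more RNA per cell cannot be told apart. Library totals ran from 11125279 to 20561967 counts, with a median of 16384049. A single gene, Gm42418, took between 1.27% and 49.7% of a library's counts. The highest share was in 3-month caput replicate 2, and the next was 36.0% in 21-month corpus replicate 3. Genes typical of each region (Prm2 in the testis, Aqp1 in the efferent ductules, Adam28 in the initial segment, Rnase13, Spint3 and Wfdc9 in caput, corpus and cauda, Akr1b7 in the vas deferens) were each highest in their own region at both ages. A pair of libraries stood apart in leukocyte genes. In 3-month cauda replicate 3 a list of 12 macrophage genes summed to 3978 CPM (counts as a share of the library's scaled total), against 531 to 565 CPM in the other 3 libraries of its group. In 21-month vas deferens replicate 4 a list of 8 B cell genes summed to 356 CPM, against 43.8 to 83.3 CPM. The main results that rest on either library are given with and without it. Correlations, similar genes, most ratios and some regional differences are given with all libraries only. For counts of genes called without some libraries, the share of all genes is given for some fits only. Elsewhere a lower count is not read as particular to class II genes, since any gene may lose its call with fewer libraries.

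In GRCm38, 6 of the 8 genes lie on chromosome 17 between position 34119541, the start of H2-DMa, and position 34316674, the end of H2-Eb1. H2-DMb2 (34143307-34151555) and H2-DMb1 (34153072-34160230) are neighbours on the plus strand. H2-Ab1 lies at 34257689-34269419 on the plus strand and H2-Aa at 34282744-34287823 on the minus strand. Ciita is on chromosome 16 at 10480059-10528418. In GENCODE M21, H2-DMa shares 360 of its 3448 exon bases with Brd2 on the other strand, and Ciita shares 329 of 9535 with Dexi. The strand setting of the counting is not given in the sources used here, so reads in those stretches cannot be assigned with certainty.

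Class II genes carry a conserved pair of promoter elements, the X box, bound by RFX, and the Y box, bound by NF-Y, on which the CIITA protein acts. RefSeq promoter sequences (GRCm38.p6, 250 bases before to 50 after the start) were found for H2-Aa, H2-Eb1, H2-DMa, H2-DMb1 and H2-DMb2. H2-Ab1, Cd74 and Ciita had no entry. The 75-base windows below hold the motifs that were searched on either strand and are shown because members with such elements had different patterns over the regions. Capitals mark the X box core, AACNGATG, and the Y box core, TGATTGG, which do not overlap.
H2-Eb1 (chr17:34305751-34305825, plus strand): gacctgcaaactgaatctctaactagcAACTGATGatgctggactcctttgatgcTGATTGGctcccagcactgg
H2-Aa (chr17:34287854-34287928, minus strand): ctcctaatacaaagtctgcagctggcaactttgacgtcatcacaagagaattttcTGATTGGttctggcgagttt
H2-DMb1 (chr17:34153073-34153147, plus strand): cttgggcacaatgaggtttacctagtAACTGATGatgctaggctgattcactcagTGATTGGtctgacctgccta
H2-DMb2 (chr17:34145102-34145176, plus strand): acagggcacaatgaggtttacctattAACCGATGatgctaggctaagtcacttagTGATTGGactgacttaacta
From the start of the X core to the start of the Y core there are 29 bases in H2-DMb1 and H2-DMb2 and 28 in H2-Eb1. Of the searched strings the H2-Aa window held the Y core alone, and neither H2-DMa promoter held either. The search was for these exact letters, so a box spelled otherwise would be missed. Over 32851 promoters of 300 bases, 2.32% held the X core, 7.82% the Y core and 0.186% both. The H2-DMb1 and H2-DMb2 windows had 63 of 75 bases in common.

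H2-DMb1 and H2-DMb2 are close copies as transcripts too, which bears on how far their counts can be separated. Their annotated transcripts, of 1404 and 1483 bases, matched at 94.1% of aligned positions. Of the 150-base stretches of H2-DMb1 5.74% were also in H2-DMb2, as were 13.7% of the 100-base and 26.6% of the 50-base stretches. Reads from those stretches could be dropped or assigned to either gene, and how the counting treated them is not given in the sources used here. H2-Eb1 had no 50-base stretch in common with its relative H2-Eb2.

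In young adults the genes for both I-A chains and for the I-E beta chain were highest in the efferent ductules and lowest in the testis. H2-Aa read 168, 175, 173 and 152 CPM in the 4 efferent ductule libraries and 4.69, 5.0, 3.22 and 2.88 CPM in the testis. H2-Ab1 read 170, 201, 172 and 187 CPM in the efferent ductules and 7.04 to 9.79 CPM in the testis. H2-Eb1 read 133, 135, 137 and 119 CPM in the efferent ductules and 2.76 to 4.58 CPM in the testis. The groups at these ends lay far apart for each of the 3 genes, and the highest regional mean was 42.3 times the lowest for H2-Aa, 21.0 times for H2-Ab1 and 35.5 times for H2-Eb1. Between them the order was the same for all 3, cauda, corpus, vas deferens, initial segment and caput, but many neighbours overlapped. H2-Aa in the cauda (119, 106, 194 and 97.2 CPM, the 194 being replicate 3) overlapped both the efferent ductules and the corpus (84.1 to 125 CPM).

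**Figure D1:**
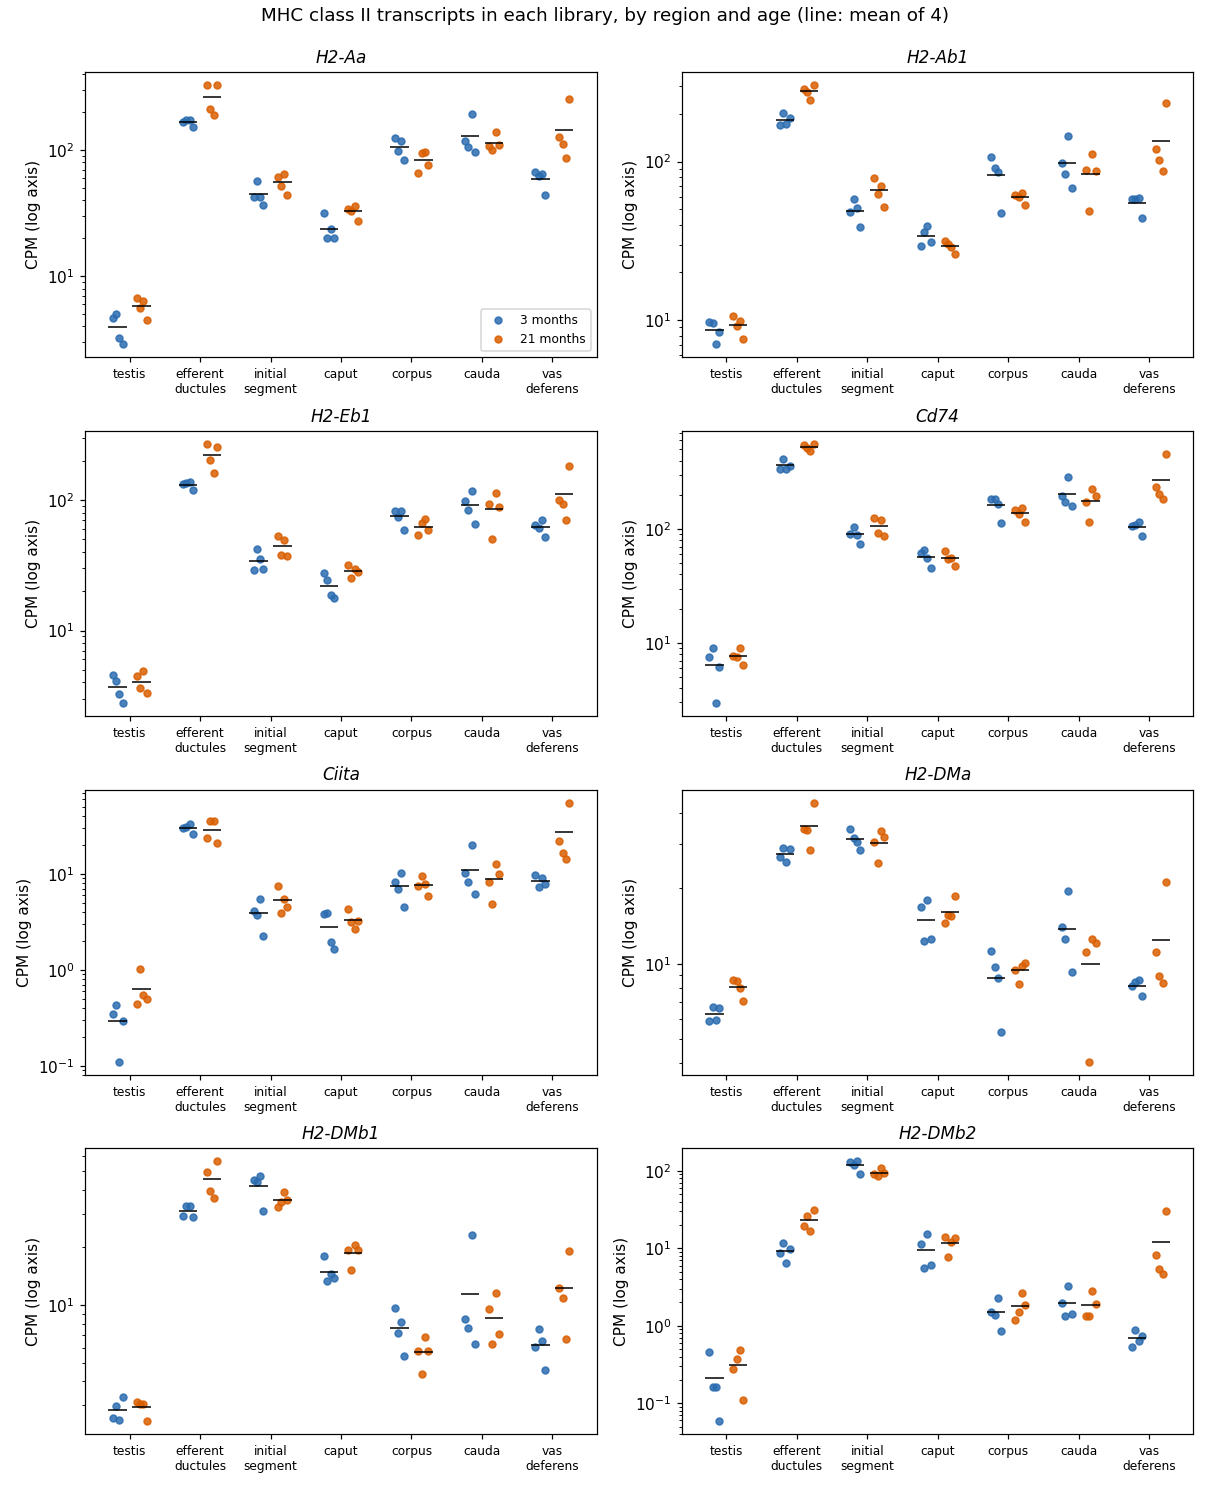
Level of each of the 8 MHC class II genes in every library, in CPM on a log axis, by region, with 3-month and 21-month mice in different colours; each point is 1 library and each bar a mean of 4. The 5 genes H2-Aa, H2-Ab1, H2-Eb1, Cd74 and Ciita peak in the efferent ductules, whereas H2-DMb2 stands at 85.7 to 132 CPM in the initial segment and below 31 CPM everywhere else.

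The invariant chain followed the chains it escorts. Cd74 read 340, 416, 336 and 361 CPM in the efferent ductules, 160 to 290 CPM in the cauda and 2.95 to 9.02 CPM in the testis. The efferent ductules were above every other region without overlap, and the highest mean was 56.6 times the lowest. Per kilobase of exon, Ciita had the lowest 3-month mean level of the 8 genes in 5 regions, and H2-DMb2 had the lowest in the cauda (1.14 CPM per kilobase, beside 1.16 for Ciita) and in the vas deferens (0.397, beside 0.894). It read 30.2, 30.8, 33.2 and 25.9 CPM in the efferent ductules, above all other libraries of that age, the next being 19.9 CPM in cauda replicate 3. In the testis Ciita was counted 2 to 8 times per library, so its 102-fold span between regions rests on few reads at the low end.

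Each region was then tested against the mean of the other 6 on a log2 scale, with edgeR's quasi-likelihood test. A Benjamini-Hochberg adjusted p under 0.05 over all genes was the call. The fit took libraries as independent, although each mouse gave 7 regions. In the efferent ductules at 3 months 8 of the 8 genes were higher, where 29.0% of all genes were. The differences were 2.11 ± 0.13 (log2, SE) for H2-Aa, 2.10 ± 0.13 for H2-Ab1, 2.02 ± 0.11 for H2-Eb1, 2.40 ± 0.13 for Cd74 and 3.05 ± 0.19 for Ciita. The H2-DM genes differed by less, 1.21 to 1.71. Genes of fat cells were also highest there: all 5 adipocyte genes were higher than in the other 6 regions, with a median log2 difference of 4.99, and their sum was 378 to 585 CPM, against at most 320 CPM in any other 3-month library. Their part in the class II level was not tested. In the testis 8 of 8 were lower, where 32.4% of all genes were, from -1.27 ± 0.16 for H2-DMa to -4.69 ± 0.39 for Ciita. Under a stricter demand, that a gene pass against every other region singly, the efferent ductules kept 4 genes (H2-Ab1, H2-Eb1, Cd74 and Ciita), where 6.68% of all genes passed, and the initial segment kept H2-DMb2 alone, where 3.39% passed.

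The cauda and corpus were also high for the same 5 genes. In each, H2-Aa, H2-Ab1, H2-Eb1, Cd74 and Ciita were higher than in the other regions, 5 of 8 where 25.6% of all genes were higher in the cauda and 21.7% in the corpus. H2-Aa led in both, by 1.67 ± 0.13 in the cauda, or 1.31 ± 0.12 without replicate 3, and by 1.34 ± 0.13 in the corpus. In the cauda H2-DMb2 was the 1 lower gene at -0.87 ± 0.28, where 11.6% of all genes were, and without replicate 3 H2-DMb1 was lower too, at -0.75 ± 0.15 (adjusted p = 0.000126, edgeR). In the corpus the 3 H2-DM genes were lower, where 17% of all genes were, at -0.72 ± 0.15 for H2-DMa, -0.72 ± 0.21 for H2-DMb1 and -1.32 ± 0.30 for H2-DMb2. Genes of other tissue were also higher: all 5 skeletal muscle genes in the cauda (median log2 difference 5.44, or 5.37 without replicate 3) and 4 of 5 adipocyte genes in the corpus (median 1.53). Their part in the class II levels was not tested. In the vas deferens 3 of 8 were higher, where 20.8% of all genes were: H2-Aa, H2-Eb1 and Ciita. The 3 H2-DM genes were lower there, from -0.84 for H2-DMa to -2.66 for H2-DMb2, where 26.3% of all genes were. The caput had 5 lower, where 19.1% of all genes were, with H2-Aa at -1.17 ± 0.16. H2-DMb2 was the 1 higher there, where 20.9% of all genes were, but without cauda replicate 3 the caput had all 3 H2-DM genes higher.

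At 3 months the H2-DM genes were arranged differently, with the highest means in the initial segment. H2-DMb2 read 129, 119, 132 and 92.0 CPM in the initial segment of young adults, where no other library of that age passed 15.3 CPM. The next region was the caput, with 11.4, 5.62, 15.3 and 6.04 CPM, and it overlapped the efferent ductules at 8.75, 11.9, 6.40 and 9.93 CPM. H2-DMb2 stayed between 0.529 and 3.24 CPM in libraries of the corpus, the cauda or the vas deferens, and in the testis it was counted 1 to 8 times per library. H2-DMb1 read 45.1, 44.1, 47.5 and 31.0 CPM in the initial segment and 29.2, 33.1, 32.8 and 28.7 CPM in the efferent ductules, which overlapped. H2-DMa read 28.4 to 34.5 CPM in the initial segment and 25.5 to 29.0 CPM in the efferent ductules, also overlapping.

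Against the other 6 regions, the initial segment was higher for those 3 genes of the 8, where 20.9% of all genes were higher. The log2 difference was 5.97 ± 0.16 for H2-DMb2, 2.14 ± 0.17 for H2-DMb1 and 1.41 ± 0.12 for H2-DMa, with adjusted p of 6.37e-24, 2.17e-12 and 3.40e-11 by edgeR's quasi-likelihood test. For the other 5 genes the initial segment lay between -0.39 and 0.03 and none was called lower, where 17.9% of all genes were. Of the 8 B cell genes 0 were higher in the initial segment and 3 lower, of the 10 dendritic cell genes 1 was higher and 3 lower, and of the 12 macrophage genes 2 were higher and 1 lower. The B cell sum in the initial segment was 1.03 to 1.74 CPM and the dendritic cell sum 20.7 to 28.6 CPM, against 42.9 to 54.7 CPM in the efferent ductules. The part of these cell types in the H2-DM levels was not tested.

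Ratios within a library, per kilobase of exon, set the beta chains side by side. In the initial segment of young adults H2-DMb2 was 2.72 ± 0.11 times H2-DMb1 (SD, n = 4). The caput came next at 0.611 ± 0.283, then the efferent ductules at 0.288 ± 0.072, the corpus at 0.188 ± 0.056, the cauda at 0.186 ± 0.042 and the vas deferens at 0.111 ± 0.0305. The initial segment was the only region of the 7 in which every library had more H2-DMb2 than H2-DMb1, at both ages. The ratio of H2-DMb1 to H2-Ab1 was highest there at 3 months, 1.31 ± 0.14, against 0.260 ± 0.024 in the efferent ductules, but at 21 months the caput had 0.981 ± 0.164 and the initial segment 0.842 ± 0.172. Cd74 kept a narrower proportion to H2-Ab1, with group means from 2.47 to 3.54 outside the testis over both ages and 1.09 ± 0.33 in the 3-month testis.

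**Figure D2:**
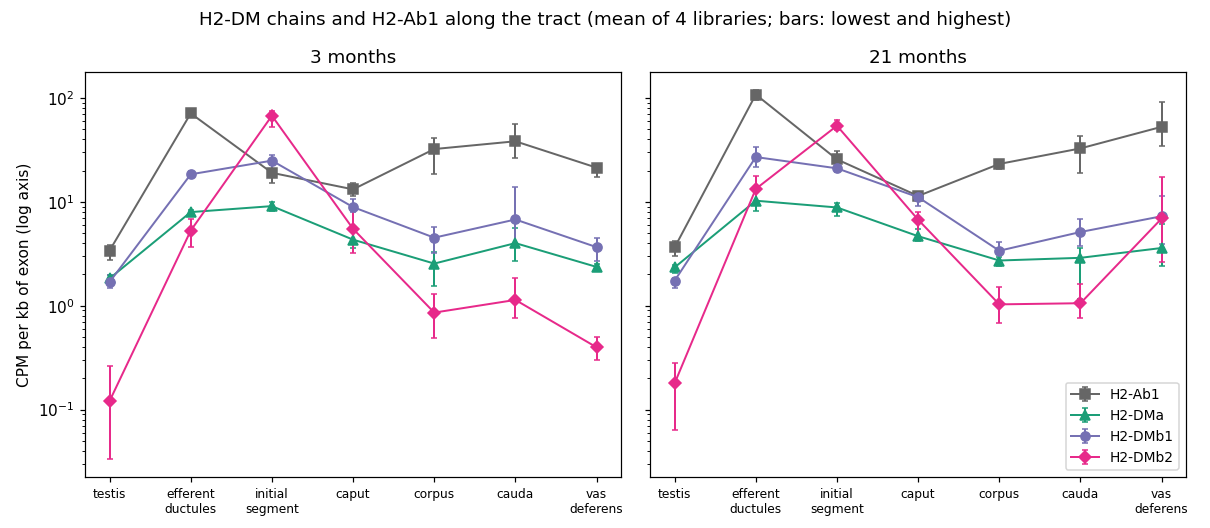
Level of H2-Ab1, H2-DMa, H2-DMb1 and H2-DMb2 per kilobase of exon, in CPM on a log axis, by region, with a panel for each age. Each point is a mean of 4 libraries and each bar runs from the lowest to the highest. The ratio of H2-DMb2 to H2-DMb1 is 2.38 to 2.85 in initial segment libraries. In the vas deferens it moves from 0.0844 to 0.154 at 3 months to 0.483 to 1.52 at 21 months.

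Across the 14 group means of log2(CPM + 1), the group splits accordingly. The 10 pairs among H2-Aa, H2-Ab1, H2-Eb1, Cd74 and Ciita had Pearson's r of 0.953 to 0.995. H2-DMb2 had r of 0.276 to 0.383 with those 5, 0.907 with H2-DMb1 and 0.896 with H2-DMa. These values are a description only, since the 14 means come from the same 8 mice and share regions.

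In aged mice the efferent ductules still had all 8 genes higher than the other regions, where 26.3% of all genes were, and the testis all 8 lower, where 34.4% were. By group means the vas deferens stood in the second place for H2-Aa, H2-Ab1, H2-Eb1, Cd74 and Ciita. Without replicate 4 the same held for H2-Ab1, H2-Eb1, Cd74 and Ciita, while H2-Aa had a mean of 108 CPM there and 114 CPM in the cauda. With all libraries the vas deferens was higher than the other 6 regions for 6 of 8 genes, where 24.1% of all genes were, by 2.39 ± 0.21 for Ciita, 1.60 ± 0.15 for Cd74 and 1.17 ± 0.28 for H2-DMb2. Without replicate 4 it was higher for 5, H2-DMb2 differed by 0.18 ± 0.21 (edgeR adjusted p = 0.597), and H2-DMa was lower, at -0.67 ± 0.19 (adjusted p = 0.00582). The initial segment kept H2-DMa, H2-DMb1 and H2-DMb2 as its 3 higher genes, where 24.4% of all genes were higher, with H2-DMb2 at 4.75 ± 0.23. The mean of H2-DMa was then higher in the efferent ductules (35.4 CPM) than in the initial segment (30.5 CPM), as was that of H2-DMb1 (45.4 and 35.4 CPM), with overlapping libraries for both.

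Age was compared within each region, 21 against 3 months. No class II gene was called lower at 21 months in any region by edgeR at an adjusted p under 0.05. The share of all genes tested that was called lower was 8.47% for the vas deferens, 5.05% for the caput, 3.01% for the initial segment, 2.98% for the efferent ductules, 1.47% for the corpus, 0.210% for the testis and 0.0583% for the cauda. The vas deferens had 7 of 8 called higher, where 11.4% of all genes tested were, the efferent ductules 6, where 4.00% were, and the initial segment 3, where 3.35% were. The testis, caput, corpus and cauda had 0, where 0.353%, 3.09%, 1.5% and 0.0700% of all genes were called higher. The median log2 difference over the 8 genes was 1.25 for the vas deferens, 0.65 for the efferent ductules and 0.42 for the initial segment, beside 0.02, -0.04 and -0.01 over all genes tested. It was 0.83 in the vas deferens without 21-month replicate 4 and 0.40 in the efferent ductules without 21-month replicates 1 and 4.

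**Figure D3:**
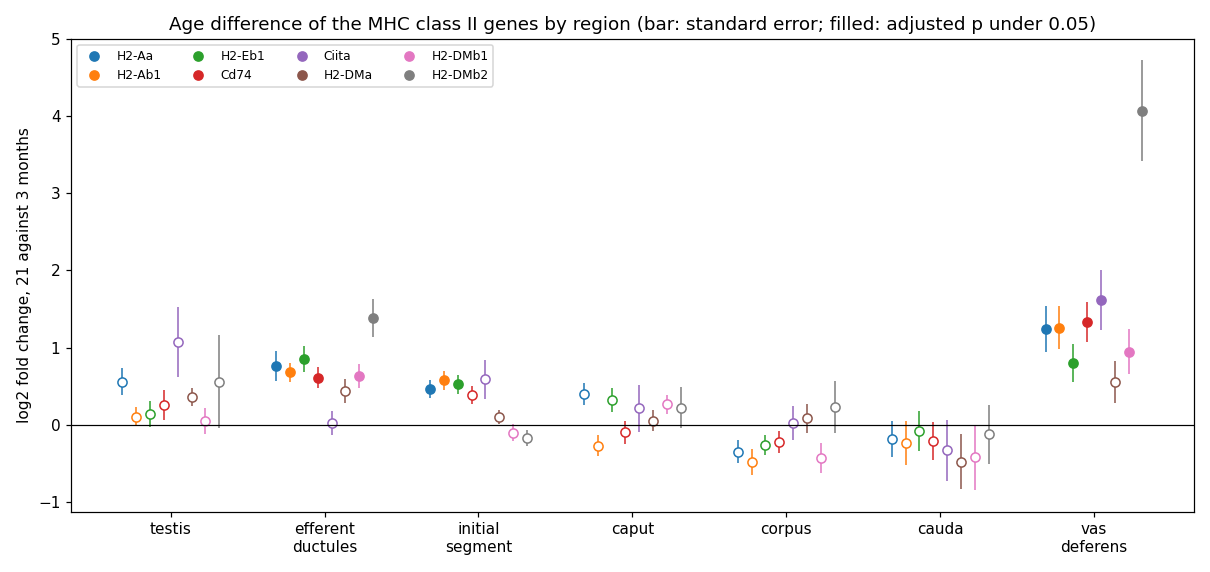
Difference between 21 and 3 months (log2, points) with its SE (bars) for each of the 8 genes in each region, from edgeR; filled points have an adjusted p under 0.05. The filled points lie in the vas deferens (7), the efferent ductules (6) and the initial segment (3), and H2-DMb2 in the vas deferens, at 4.07, is the farthest from 0.

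In the vas deferens the largest difference was in H2-DMb2, the beta chain that was nearly silent there in young adults. It read 0.529, 0.876, 0.643 and 0.730 CPM at 3 months and 8.09, 5.45, 4.61 and 30.2 CPM at 21 months. All aged libraries were above all young ones, and replicate 4 was far above the other 3. The log2 difference was 4.07 ± 0.655 (adjusted p = 0.00242, edgeR), and 3.06 ± 0.28 without replicate 4. Its ratio to H2-DMb1 per kilobase went from 0.111 ± 0.0305 to 0.827 ± 0.472, with 0.631, 0.483, 0.669 and 1.52 in the aged libraries, the last being replicate 4.

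Ciita, the coactivator, read 9.68, 7.32, 9.15 and 7.93 CPM in the young vas deferens and 22.2, 16.4, 14.2 and 55.4 CPM in the aged. Cd74 read 107, 108, 115 and 86.8 CPM in young and 234, 204, 182 and 461 CPM in aged animals. Neither gene overlapped between ages. Both rose, Ciita by 1.62 ± 0.39 (adjusted p = 0.0157, edgeR) and Cd74 by 1.33 ± 0.27 (adjusted p = 0.00663), or by 0.98 ± 0.18 and 0.93 ± 0.12 without replicate 4.

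The I-A chains rose together in the vas deferens. H2-Aa read 66.9, 62.2, 64.4 and 44.0 CPM at 3 months and 127, 112, 86.1 and 255 CPM at 21 months, and H2-Ab1 58.5, 57.7, 59.0 and 44.1 CPM and 120, 102, 87.8 and 233 CPM. Again no aged library was as low as a young one. The differences were 1.24 ± 0.30 and 1.26 ± 0.28 (log2), with edgeR adjusted p of 0.0157 and 0.0101, or 0.81 ± 0.16 and 0.85 ± 0.13 without replicate 4. H2-Eb1 rose by less, 0.80 ± 0.25 (adjusted p = 0.0462, edgeR), or by 0.45 ± 0.14 without replicate 4 (adjusted p = 0.0368), from 51.8 to 70.9 CPM in young libraries to 99.6, 94.1, 70.9 and 182 CPM in aged ones. Its call was lost in 5 of the 8 fits without a single library, with library size alone and with a replicate block (adjusted p up to 0.125, edgeR). Its ratio to H2-Ab1 per kilobase was 1.5 ± 0.09 at 3 months and 1.10 ± 0.08 at 21 months, without overlap. H2-DMb1 rose by 0.94 ± 0.29 (adjusted p = 0.0423, edgeR) with overlapping libraries, and lost its call in 7 of the 8 fits without a single library (0.64 ± 0.23, adjusted p = 0.0661, without 21-month replicate 4) and with a replicate block. H2-DMa was the 1 gene not called, at 0.55 ± 0.27 (adjusted p = 0.180, edgeR).

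Without 21-month replicate 4 the vas deferens thus had 6 of 8 genes called. Without 3-month replicate 4 it had 3, H2-Ab1, Cd74 and H2-DMb2, and the share of all genes called in either fit is not given here. The B cell sum moved with these genes: it was 7.30 to 11.8 CPM in young libraries and 83.3, 43.8, 64.6 and 356 CPM in aged ones, highest in the same replicate 4. All 8 B cell genes were higher, with a median difference of 4.87, and all 9 T cell genes, with a median of 2.82. Without replicate 4 these counts were 8 and 8, with medians of 3.76 and 2.43. Cd79a, part of the B cell receptor, read 5.50 to 50.9 CPM in aged libraries, against at most 0.370 CPM in young ones. The macrophage sum overlapped between ages (263 to 371 and 293 to 424 CPM), as did the dendritic cell sum (32.5 to 43.2 and 33.6 to 51.4 CPM), and 4 of 12 and 1 of 10 of their genes were called higher. Genes of other tissue moved as well: 3 of 6 epithelial genes were higher and 1 lower, with a sum of 887 to 1048 CPM in young and 1108 to 1428 CPM in aged libraries, and 2 of 5 skeletal muscle genes were higher. Of the 7 genes typical of single regions Adam28, Spint3 and Wfdc9 were higher and Akr1b7 and Aqp1 lower. The part of these cells in the class II difference was not tested.

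**Figure D4:**
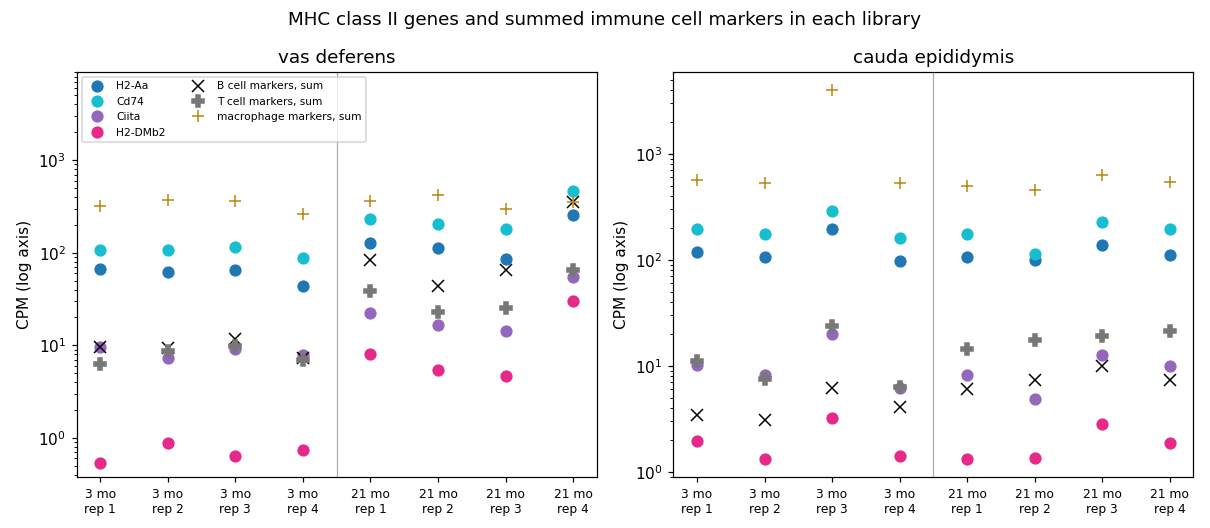
Level of H2-Aa, Cd74, Ciita and H2-DMb2 and summed level of marker gene lists in each library of the vas deferens and the cauda, in CPM on a log axis. The lists are macrophages (12 genes), B cells (8) and T cells (9). Each point is a value of 1 library. The B cell sum in the vas deferens is 7.30 to 11.8 CPM at 3 months and 43.8 to 356 CPM at 21 months, and 3-month cauda replicate 3 stands alone in macrophage genes at 3978 CPM.

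In the efferent ductules, the region with the highest class II levels, 6 genes rose. H2-Aa read 168, 175, 173 and 152 CPM at 3 months and 330, 214, 191 and 328 CPM at 21 months, H2-Ab1 went from 170 to 201 CPM up to 245 to 305 CPM, and H2-Eb1 from 119 to 137 CPM up to 161 to 271 CPM. Aged libraries lay above all young ones for each gene, with H2-Aa replicates 1 and 4 well above replicates 2 and 3. The log2 differences were 0.76 ± 0.20, 0.68 ± 0.13 and 0.85 ± 0.17, with edgeR adjusted p of 0.0445, 0.0165 and 0.0192. Cd74 went from 336 to 416 CPM up to 480 to 562 CPM, a difference of 0.61 ± 0.13 (adjusted p = 0.0251, edgeR).

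Of the H2-DM genes in the efferent ductules, H2-DMb2 rose most, from 8.75, 11.9, 6.40 and 9.93 CPM to 19.4, 26.1, 16.8 and 30.9 CPM. Its difference was 1.39 ± 0.25 (adjusted p = 0.0138, edgeR), without overlap. Adam28, the gene that marks the neighbouring initial segment, was at 0 to 0.159 CPM in the young efferent ductules and at 0.175, 136, 68.8 and 0 CPM in the aged ones, against 3725 to 5793 CPM in the young initial segment. The part of initial segment tissue in the H2-DMb2 difference was not tested. H2-DMb1 rose by 0.63 ± 0.16 (adjusted p = 0.0375, edgeR), and H2-DMa differed by 0.43 ± 0.15 (adjusted p = 0.112, edgeR). Ciita had the smallest difference of the 8 in this region, with 30.2, 30.8, 33.2 and 25.9 CPM at 3 months and 23.6, 35.5, 35.3 and 21.0 CPM at 21 months. The ages overlapped and the difference was 0.02 ± 0.16 (adjusted p = 0.958, edgeR). Its ratio to H2-Ab1 per kilobase was 0.0445 ± 0.0066 and 0.0286 ± 0.0098.

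The aged efferent ductule libraries with the least Ciita and the most H2-Aa, replicates 1 and 4, had the smaller total counts, 11442133 and 11125279 against 15665064 and 16121722, and 22.2% and 18.5% of counts in Gm42418 against 4.93% and 14.9%. Without that pair, which leaves the 2 aged libraries that held Adam28, the H2-Aa difference was 0.31 ± 0.08. Since the pair holds the extremes of both genes, no call is read from that fit. Without single libraries the count in this region ran from 0, without 3-month replicate 1 or 4, to 6, and was 1 without 3-month replicate 3. Scaled by library size alone, which moved the median over all genes from -0.04 to -0.38, it was 2. The macrophage sum was 439 to 487 CPM in young and 588 to 811 CPM in aged libraries, with 6 of 12 genes higher and 1 lower (Mertk), and 7 of 9 T cell genes were higher. Of the other lists 2 of 10 dendritic cell genes (Itgax and Ccr7), 2 of 8 B cell genes and 2 of 6 general leukocyte genes were higher, where 4.00% of all genes were. The B cell sum was 2.08 to 5.64 CPM and then 17.7, 15.9, 15.7 and 3.82 CPM. Their part in the class II difference was not tested.

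In the initial segment H2-Aa, H2-Ab1 and H2-Eb1 rose and the H2-DM beta chains did not pass. H2-Ab1 read 47.9, 58.1, 51.0 and 38.7 CPM at 3 months and 79.2, 62.8, 69.9 and 51.6 CPM at 21 months, which overlap. Its difference was 0.57 ± 0.12 (adjusted p = 0.0102, edgeR), beside 0.46 ± 0.12 for H2-Aa (adjusted p = 0.0340) and 0.52 ± 0.12 for H2-Eb1 (adjusted p = 0.0186). H2-DMb2 read 90.0, 85.7, 108 and 94.1 CPM at 21 months, within or below its young range, a difference of -0.18 (adjusted p = 0.399, edgeR), and H2-DMb1 was at -0.10 (adjusted p = 0.705). H2-DMb1 per kilobase went from 1.31 ± 0.14 times H2-Ab1 to 0.842 ± 0.172 times. Without single libraries 1 to 4 genes were called, with 1 left without 3-month replicate 1 or 21-month replicate 3. With all 56 libraries in one fit none of the 3 passed (adjusted p of 0.307 to 0.505, edgeR). Leukocyte genes were higher as well: 5 of 6 general leukocyte genes, 5 of 9 T cell genes and 4 of 12 macrophage genes, but 0 of 10 dendritic cell genes and 0 of the 6 B cell genes tested. The T cell sum was 5.23 to 6.70 CPM in young and 10.03 to 13.1 CPM in aged libraries, and the macrophage sum 327 to 353 and 356 to 438 CPM. Of 6 germ cell genes 4 were lower (Ddx4, Prm1, Prm2 and Tnp1), with a sum of 19.7 to 76.9 CPM in young and 5.28 to 15.6 CPM in aged libraries. Their part in the class II difference was not tested.

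No member passed in the other 4 regions, by edgeR or by DESeq2. At an unadjusted p under 0.05 edgeR had 3 genes higher in the testis, where 5.39% of all genes were, 1 higher in the caput, where 11% were, 4 lower in the corpus, where 9.13% were, and 0 in the cauda. In the testis Ciita read 0.109 to 0.435 CPM at 3 months and 0.437 to 1.02 CPM at 21 months, from 2 to 8 and 8 to 19 counts, a difference of 1.07 ± 0.45 (adjusted p = 0.401, edgeR). H2-DMa in the testis read 5.90, 6.74, 5.95 and 6.65 CPM and then 8.58, 8.54, 8.01 and 7.11 CPM, without overlap, at 0.35 ± 0.12 (adjusted p = 0.212, edgeR). In the caput H2-Aa was at 0.40 (adjusted p = 0.0903, edgeR). Leukocyte genes were called higher there too, 5 of 9 T cell genes, 3 of 6 general leukocyte genes and 3 of 12 macrophage genes, with a T cell sum of 3.08 to 5.88 CPM in young and 10.7 to 16.0 CPM in aged libraries. In the corpus the median over the 8 genes was -0.25, and H2-Ab1 read 106, 91.0, 86.1 and 47.8 CPM and then 61.4, 59.7, 63.7 and 53.3 CPM, at -0.48 (adjusted p = 0.150, edgeR). In the cauda the 8 genes lay between -0.48 and -0.09 with a median of -0.23, but without 3-month replicate 3, the library high in macrophage genes, the median was 0.12, again with 0 calls.

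Whether the age difference itself differs between regions was tested with the interaction of age and region over all 56 libraries, again taken as independent. It passed for 7 of the 8 genes, where 20.2% of all genes passed, H2-DMa being the exception (adjusted p = 0.132, edgeR). It passed for 3 genes without the libraries of replicate number 1, for 4 without those of number 2 or number 4, and for 7 without those of number 3. Against the mean age difference of the other 6 regions, that of the vas deferens was larger for 6 genes, where 6.51% of all genes were: by 1.04 for H2-Aa, 1.27 for H2-Ab1, 1.28 for Cd74, 1.42 for Ciita, 1.02 for H2-DMb1 and 3.80 for H2-DMb2. Without vas deferens replicate 4 at 21 months 3 were left, where 4.62% of all genes were larger, H2-Ab1 at 0.88 ± 0.21 (adjusted p = 0.00695, edgeR), Cd74 at 0.90 ± 0.22 (adjusted p = 0.00658) and H2-DMb2 at 2.80 ± 0.40 (adjusted p = 3.86e-06). The age difference of H2-DMb2 in the initial segment was lower than elsewhere, by -1.38 (adjusted p = 0.0377, edgeR), the 1 such gene where 1.38% of all genes were. That contrast rested on the vas deferens, since against the other 5 regions alone it was -0.65 (adjusted p = 0.489, edgeR). In the efferent ductules 0 of 8 genes had a larger age difference than in the other 6 regions, where 1.43% of all genes had, with H2-Eb1 at 0.53 ± 0.22 (adjusted p = 0.174, edgeR) as the 1 with an unadjusted p under 0.05. With the vas deferens left out, an alternative chosen after seeing the data, the efferent ductules had a larger age difference than the other 5 regions for 3 genes, where 2.73% of all genes had: H2-Ab1, H2-Eb1 and H2-DMb2, at 0.74 ± 0.22, 0.72 ± 0.21 and 1.26 ± 0.33.

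The rest of the class II pathway was read from fixed lists. H2-Oa and H2-Ob encode H2-DO, which restrains H2-DM and is best known from B cells, and H2-Eb2 is a further beta chain gene. All 3 rose in the aged vas deferens, where 11.4% of all genes did. H2-Ob went from 0.625 to 1.93 CPM up to 7.20, 3.93, 5.68 and 30.2 CPM, the last being replicate 4 (3.06 ± 0.65, adjusted p = 0.00898, edgeR), and H2-Oa rose by 3.60 ± 0.67 (adjusted p = 0.00479). Without replicate 4 all 3 were still called, H2-Ob at 1.97 ± 0.31 and H2-Oa at 2.57 ± 0.32. In other regions none of those tested passed, which were 1 in the testis and 2 each in the caput and initial segment. In the efferent ductules 2 of 3 were higher at an unadjusted p under 0.05 in edgeR, where H2-Eb2 was at 2.22 ± 0.78 (adjusted p = 0.112). The pseudogene H2-Ea-ps, which stands for the I-E alpha chain in this strain, had 3 counts over the 56 libraries.

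Among 8 endosomal processing genes Ctss, cathepsin S, which trims the invariant chain, rose in 4 regions: the efferent ductules by 1.24 ± 0.23, the vas deferens by 0.81 ± 0.22, the initial segment by 0.66 ± 0.10 and the caput by 0.51 ± 0.14. The counts of this and the next lists stand beside the shares of all genes given above, which for the vas deferens were 11.4% higher and 8.47% lower. Of the whole list the efferent ductules had 3 higher, the initial segment 2, and the vas deferens 2 higher and 2 lower (Ctsl and Ctsb). Of the 7 genes for RFX, NF-Y and CREB, which form the complex that CIITA joins, 2 were higher in the vas deferens (Rfxank and Nfyc) and 0 in the other 6 regions, where 0 to 1 were higher and 0 to 3 lower at an unadjusted p under 0.05 in edgeR. Rfx5 stayed between -0.04 and 0.12 in all 7. Of 6 tested genes of interferon gamma signalling, 0 passed in the efferent ductules (1 higher at an unadjusted p under 0.05 in edgeR), Jak2 was higher in the vas deferens, and in the initial segment Irf1 was higher and Ifngr2 lower. Ifng itself had 13 counts over the 56 libraries. Of 7 costimulation genes 3 were higher in the vas deferens (Cd80, Icosl and Cd83), and Cd86 was called in no region.

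At 3 months the regional order of leukocyte lists and of class II genes was not the same everywhere. In the efferent ductules 8 of 10 dendritic cell genes and 7 of 12 macrophage genes were higher than in the other 6 regions, and 0 were lower. In the cauda all 12 macrophage genes were higher than in the other 6 regions, 11 without replicate 3, where 25.6% of all genes were. Of the 10 dendritic cell genes 7 were higher and 1 lower, and 8 of 9 T cell genes were higher, or 2 without replicate 3. H2-Aa, H2-Ab1, H2-Eb1, Cd74 and Ciita were higher there too, but with lower means than in the efferent ductules. In the testis 11 of 12 macrophage genes were lower. The B cell sum of the testis, 30.7 to 39.1 CPM at 3 months, came mostly from Pax5 (24.6 to 32.2 CPM), and Cd79a was at 0 counts in 3 of the 4 libraries. The part of these cell types in the class II levels was not tested.

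The genes whose pattern over the 14 group means was most like the mean of the 8 members, among 15621 protein-coding genes with at least 1 CPM on average, were Zfp36l2 (r = 0.988), Nectin1 (r = 0.976), Fgfr3 (r = 0.971), Por (r = 0.965) and Hexim1 (r = 0.960). Mllt6, Nfatc1, Mustn1, Rab35 and Foxo1 completed the 10, at 0.957 to 0.960. By Spearman's rank correlation 4 of these were among the first 10. For H2-DMb2 alone the closest were Cebpb (r = 0.972), F8a (r = 0.964) and Tceal3 (r = 0.959), a comparison that was chosen after its values were seen.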

How the data were processed

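The deposited table holds whole-number read counts per Ensembl gene for 56 libraries. Per the labels, the authors made stranded total RNA libraries, and the submitters' processing notes name cutadapt, HISAT2, HTSeq and the mm10 build. The labels and the published methods name different RNA extraction reagents. Versions, the counting mode and the annotation release are not given in the sources used here. Of 53379 gene IDs, 53274 were matched to GENCODE M21 symbols. Genes with at least 10 counts in a comparison were tested with edgeR 4.0.16 (R 4.3.3; TMM normalisation, quasi-likelihood F-test), each region's 4 against 4 libraries for age, 28 libraries per age for regions and all 56 for the interaction, with Benjamini-Hochberg adjustment over all genes tested. An SE is the log2 difference divided by the square root of F. CPM used TMM factors over all 56 libraries. Alternatives were DESeq2 1.42.0, other scalings and filters, the study's rule of 1.5-fold with an unadjusted p under 0.05, a replicate block, and leaving out libraries. The main age, region and interaction fits were tested on simulated data, and the other steps were not. Replicates are 4 mice per age, and the closest pair of libraries of a group differed beyond sampling noise (chi-square per degree of freedom 3.03, the lowest of 84 pairs). Named genes are the 8 members, genes of fixed lists, the 10 genes most like the members, and Cebpb, F8a and Tceal3, the closest to H2-DMb2. Gm42418, Brd2 and Dexi are named for their bearing on the counts. The members and lists were chosen with earlier results of these data known. No protein sequences were used.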

Additional observations from a re-analysis of the deposited data

Results flagged for a closer look

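In 5 of 112 groups of 4 libraries 1 member's value lay far from the other 3 by Dixon's test, and chance alone marks about 1 group in 20. H2-DMb2 in 21-month vas deferens replicate 4 was high at 30.2 CPM, and H2-DMb1 in 3-month cauda replicate 3 was high at 23.1 CPM. These are the libraries that also stood apart in B cell and in macrophage genes. The other 3 were low: H2-Ab1 in 3-month vas deferens replicate 4 at 44.1 CPM, H2-DMa in 21-month cauda replicate 2 at 4.04 CPM, and H2-DMb1 in 21-month testis replicate 4 at 2.48 CPM.

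For 7 genes the age difference was not the same over the 7 regions by the interaction test in edgeR. Without the libraries of replicate number 1 this held for 3 genes, and without those of number 2 or 4 for 4. The adjusted p was 0.00154 for H2-Aa, 0.000185 for H2-Ab1, 0.0160 for H2-Eb1, 0.000894 for Cd74, 0.0125 for Ciita, 0.00972 for H2-DMb1 and 1.73e-06 for H2-DMb2.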

How the results depend on the processing

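The 16 age differences called in the report were higher at 21 months in each of 16 other settings, but many calls were not kept. The shares of all genes called in these settings are not given here, so a lost call is not read as particular to these genes. For age, the efferent ductules had 2 genes called with library size alone, 3 with all 56 libraries in one fit and 0 to 6 without single libraries. The initial segment had 0 with all 56 libraries, 1 by the study's rule and 1 to 4 without single libraries, the vas deferens 3 to 7, with 3 without 3-month replicate 4, the caput 0 to 1, and the testis 1 by the study's rule and 1 with no filter. Passing against every other region singly left the efferent ductules 4 and the initial segment 1 at both ages, and the caput, corpus, cauda and vas deferens 0. The caput at 3 months had 2 with filterByExpr, 3 without cauda replicate 3, and 1 to 3 without libraries. The corpus at 21 months, at 2, had 0 with DESeq2 size factors, library size alone, filterByExpr or no Gm42418, and 0 to 3 without libraries. The interaction had 3 to 7 without a replicate number, 3 without replicate 1, and 4 without the vas deferens. Spearman's rho kept 4 of the 10 most similar genes. Replicate numbers were not used to pair samples. All 4 correlations between same-numbered libraries passed 0.1 in 1 of 21 region pairs at 3 months and 0 at 21 months. The mean of a region pair ran from -0.153 to 0.233 (caput with corpus at 3 months). With 4 libraries per group this cannot settle whether a number marks 1 mouse. The region and interaction fits took libraries as independent, so their p values do not allow for regions that came from the same mouse. With a replicate block the efferent ductules had 3 genes and the 3-month caput 2, and Ciita in the efferent ductules was at -0.0089.

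Directions turned only for differences that were not called. With library size alone Ciita was at -0.30 in the efferent ductules and -0.18 in the corpus, where H2-DMa was at -0.10 and H2-DMb2 at -0.0073, and Cd74 in the caput was at 0.17. That scaling moved the median over all genes from -0.04 to -0.38 in the efferent ductules. With all 56 libraries Ciita was at -0.052 in the efferent ductules and H2-DMa at -0.043 in the initial segment. Without single libraries the range was -0.082 to 0.14 for Ciita in the efferent ductules, -0.012 to 0.12 for H2-DMb1 in the testis, -0.20 to 0.044 for Cd74 and -0.0306 to 0.15 for H2-DMa in the caput, and -0.14 to 0.19 for Ciita, -0.072 to 0.24 for H2-DMa and -0.0344 to 0.48 for H2-DMb2 in the corpus. In the cauda it was -0.32 to 0.13 for H2-Aa, -0.41 to 0.056 for H2-Ab1, -0.25 to 0.10 for H2-Eb1, -0.36 to 0.051 for Cd74, -0.56 to 0.17 for Ciita, -0.64 to 0.25 for H2-DMb1 and -0.41 to 0.27 for H2-DMb2. The cause was not tested.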
